A study of Mus musculus with 16 samples.

Results

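Macroautophagy is the process by which a cell encloses part of its cytoplasm in a double membrane, the autophagosome, and delivers it to the lysosome for digestion. The Ulk kinase complex starts the process, a class III phosphatidylinositol 3-kinase (PI3K) complex marks the membrane with PI3P, and 2 ubiquitin-like conjugation systems attach proteins of the Atg8 family (LC3 and GABARAP) to the growing membrane, where receptors bind them together with their cargo. In T cells the pathway clears mitochondria and supports survival, and in maturing red cell precursors it removes mitochondria and ribosomes. The 41 genes described here are the core of this machinery, named by symbol and taken from the 41214 genes of each count table. They comprise 5 genes of initiation, 6 of the PI3K complex, 7 of PI3P effectors and membrane supply, 11 of conjugation, 4 of the Atg8 family, 5 receptors, 1 of tethering and 2 transcription factors. Each had 1 matching row, and all 41 were among the 17470 genes that passed the filter on low counts.

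RNA was sequenced from 16 mice of strain C57Bl6 whose tissue is labelled T-cell acute lymphoblastic leukaemia (T-ALL), 2 mice in each of 8 groups. ICN, the intracellular part of Notch, drove the leukaemia in 12 mice and was not induced in the other 4. Among the ICN mice, 3 groups were p53 ko (Miz1 deltaPOZ with the title suffix Lck, Miz1 deltaPOZ with the suffix Vav, and Miz1 wt) and 3 were p53 wt with the same Miz1 states. The mice without ICN were all p53 ko, either Miz1 deltaPOZ with the suffix Vav or Miz1 wt. Miz1 (gene Zbtb17) is a transcription factor and deltaPOZ a form that lacks its POZ domain. The labels do not explain the Lck and Vav suffixes, and they do not state what drives the deletion, which organ was sampled or how old the mice were.

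The libraries held 36463524 to 68523196 gene counts (median 50171983). Levels are CPM, counts scaled to a common library size. Trp53 stood at 7.32 to 30.6 CPM in the 10 p53-ko mice and at 70.2 to 113.5 CPM in the 6 p53-wt mice. Zbtb17 spanned 38.0 to 87.5 CPM in the 10 deltaPOZ mice and 42.9 to 137.8 CPM in the 6 Miz1-wt mice, a range over the whole gene that does not isolate the deleted part. The first ICN Miz1-wt p53-ko mouse stood apart, with the fewest gene counts (36463524), the largest share of its deposited counts marked as not uniquely aligned (63.74%) and 20.57% on genes. It had the highest level of Atg9a, Rb1cc1, Map1lc3a, Map1lc3b, Calcoco1 and Tax1bp1 among the 16 mice and of Atg12 among the compared ICN mice. The 12 T-cell markers were present in every library, with summed levels of 2625 to 3610 CPM in the 12 ICN mice and 3315 to 5480 CPM in the 4 mice without ICN. Markers of other blood cells differed between these sets. The 10 erythroid markers, which include Slc4a1 and Alas2, summed to 2196 to 9324 CPM in the ICN mice, against 5.75 to 41.7 CPM in the mice without ICN, where up to 3 of the 10 were at 0. The 10 neutrophil markers summed to 56.4 to 9197 CPM in the ICN mice and to 1.59 to 2.04 CPM in the mice without ICN, with up to 4 at 0. The 12 macrophage markers overlapped, at 157.5 to 1590 CPM with ICN and 127.8 to 360.7 CPM without. The erythroid and neutrophil ranges of ICN and no-ICN libraries did not meet, so ICN and the content of these cells cannot be told apart in any comparison of ICN with no ICN. In such bulk samples, a difference in the number of cells of a type and a difference in RNA per cell cannot be told apart either.

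Per kilobase of merged exon, the cargo receptors Sqstm1 and Tax1bp1 led the machinery. This scale depends on annotation, because merged exons pool all annotated transcripts of a gene and a longer annotation lowers the value. Sqstm1 (p62, the receptor that binds ubiquitinated cargo) had the highest median level, 64.2 CPM per kb with a range of 40.2 to 74.6 over the 16 mice. Tax1bp1, another ubiquitin-binding receptor, followed at a median of 34.8 CPM per kb, with a range of 16.5 to 57.5. Becn1 (the Beclin 1 subunit of the PI3K complex), Atg101 (a stabiliser of the Ulk complex) and Nbr1 (a receptor related to p62) had medians of 26.8, 25.6 and 25.5 CPM per kb, with ranges that overlapped each other. At the low end stood the transcription factors Tfeb and Tfe3, which activate lysosome and autophagy genes, with medians of 1.76 and 1.67 CPM per kb. Wipi1, a PI3P-binding protein of the forming membrane, had a median of 1.59 CPM per kb and the protease gene Atg4c 0.414. Levels within families were uneven. Among the Atg4 proteases, which process Atg8 proteins before and after conjugation, Atg4a reached a median of 16.5 CPM per kb, Atg4b 8.88 and Atg4d 5.49. In the Atg8 family Gabarapl2 (18.0) and Map1lc3b (13.7, encoding LC3B) lay above Gabarapl1 (7.79) and Map1lc3a (3.78 CPM per kb). Before division by length, the median was 73.5 CPM for Atg4b and 44.0 CPM for Atg4a. It was 102.7 CPM for Map1lc3b and 41.95 CPM for Gabarapl2, so both pairs changed order with the scale. Among the initiation kinases Ulk2 (13.4) had a higher median than Ulk1 (5.71 CPM per kb), although their ranges overlapped.

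**Figure D1:**
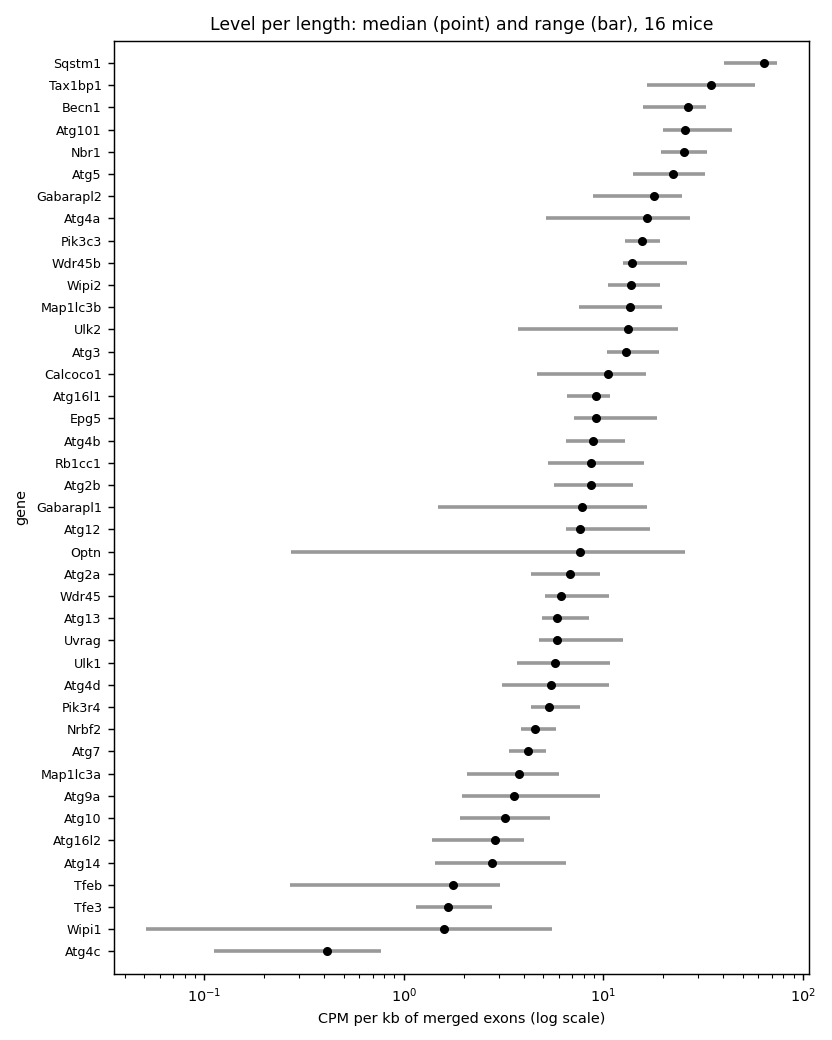
Level of each of the 41 genes in CPM per kilobase of merged exon, on a log scale, with the median (point) and the lowest to highest value (bar) over 16 mice. Sqstm1 is at the top with a median of 64.2 CPM per kb, and Wipi1 and Optn have the longest bars, with lowest values of 0.0511 and 0.273 CPM per kb.

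The initiation genes are the kinases Ulk1 and Ulk2, their regulator Atg13, the scaffold Rb1cc1 (FIP200) and Atg101. The PI3K complex genes are Pik3c3, its partner Pik3r4 (Vps15), Becn1, Nrbf2 and the alternative subunits Atg14 and Uvrag. Wipi1, Wipi2, Wdr45 and Wdr45b are related PI3P-binding proteins, Atg2a and Atg2b carry lipid to the growing membrane, and Atg9a moves lipid across it. Conjugation uses the activating enzyme Atg7, the E2-like enzymes Atg3 and Atg10, the proteins Atg5, Atg12, Atg16l1 and Atg16l2 and the 4 Atg4 proteases. Calcoco1, a receptor for endoplasmic reticulum, completes the receptors, with a median of 10.5 CPM per kb.

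Most of the machinery varied little between libraries. The standard deviation of log2 CPM over the 16 mice had a median of 0.35 among the 41 genes, against 0.56 among all tested genes, and 33 of the 41 lay below the median of all genes. Such values depend on a gene's level, so this is a description and not a property shown to be particular to the pathway. The steadiest were Nrbf2 (a PI3K complex subunit), Pik3c3 (the catalytic subunit Vps34), Atg7 (the activating enzyme of both conjugation systems) and Atg16l1 (the scaffold that places LC3 conjugation), whose highest libraries were 1.499, 1.51, 1.54 and 1.65 times their lowest. The widest were Wipi1 and Optn, where the highest library was 108.2 and 93.9 times the lowest. By step, the summed level of the 5 initiation genes was 55.8 to 70.0 CPM per kb in the ICN mice and 59.7 to 68.5 in the mice without ICN, and that of the 6 PI3K complex genes was 56.8 to 72.3 and 57.5 to 69.9 CPM per kb. The sums also overlapped for PI3P effectors and membrane supply (49.5 to 69.45 and 50.7 to 69.6), conjugation (84.1 to 113.4 and 69.6 to 100.4) and Atg8 genes (36.5 to 64.5 and 27.75 to 38.3 CPM per kb). The 5 receptors together stood higher in every ICN mouse (126.9 to 182.3 CPM per kb) than in every mouse without ICN (93.4 to 125.4 CPM per kb). These ranges nearly met, and Sqstm1 had the highest median level of the 5. Among all single genes, 8.25% were above in every ICN mouse in the same way.

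**Figure D2:**
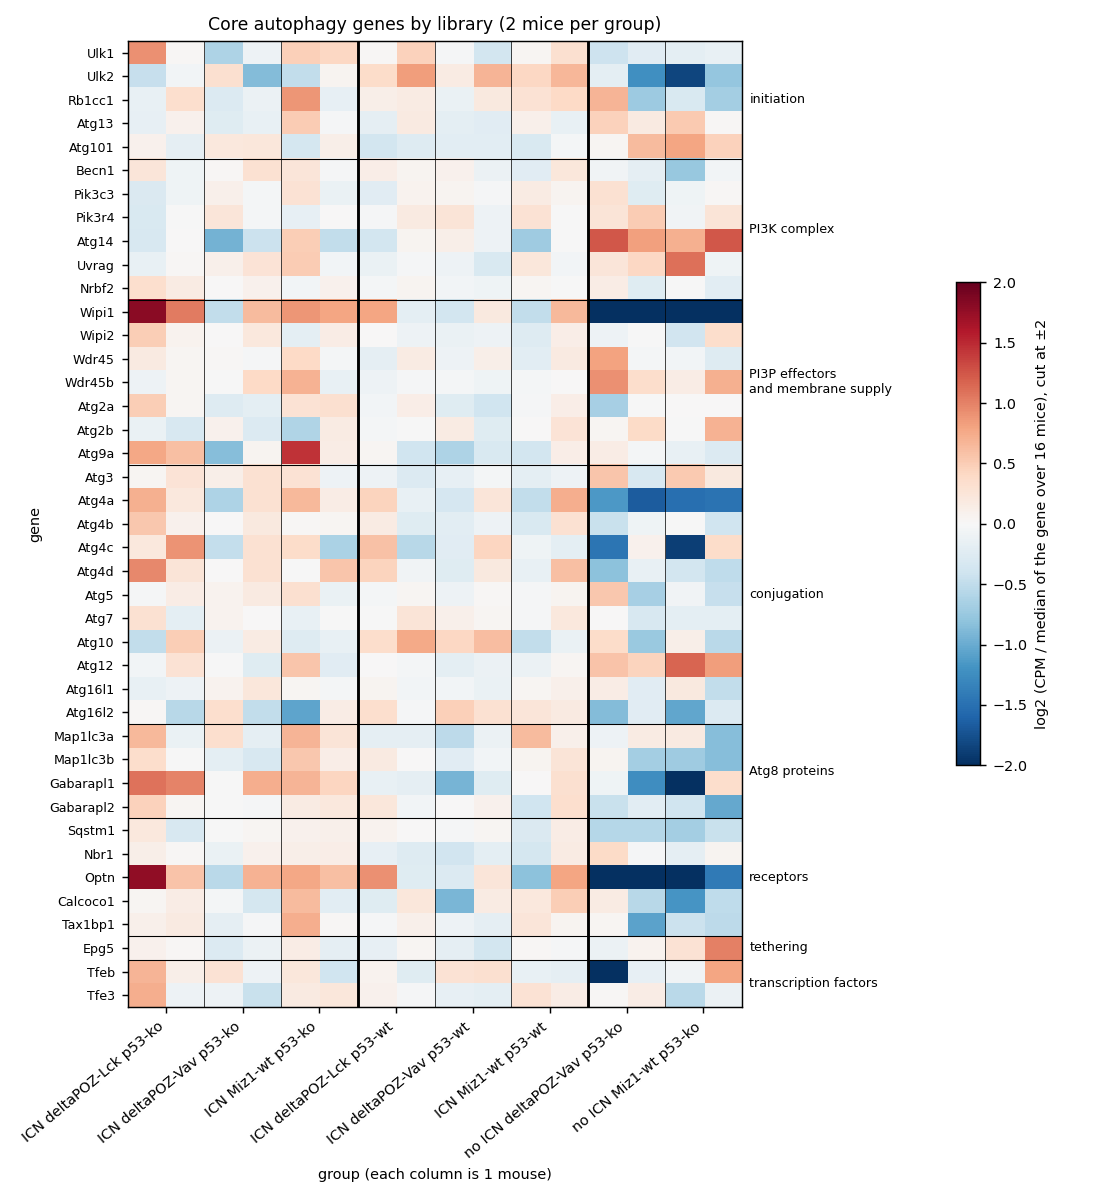
The 41 genes by step (rows) in the 16 mice (columns, 2 per group), as log2 of CPM over the gene's median, with the scale cut at ±2. Most rows are pale, whereas Wipi1, Optn and Atg4a are low and Atg14 is high in the 4 mice without ICN on the right.

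The comparison of ICN with no ICN was made in p53-ko mice, between 4 ICN mice (deltaPOZ-Vav and Miz1 wt) and 4 mice without ICN of the same Miz1 states. It called 7 of the 41 genes, 5 higher and 2 lower, by edgeR's quasi-likelihood test with Benjamini-Hochberg adjustment over all genes and a threshold of 0.05. This was 17.1% of the 41, against 24% of all tested genes (12.9% higher and 11.1% lower), so the share was below that of genes at large. At an unadjusted p under 0.05 there were 13 of 41 (31.7%), against 37.4% of all genes. The median log2 change was 0.21 among the 41 and -0.01 among all genes. The 5 genes that rose were Wipi1, Optn, Atg4a, Sqstm1 and Map1lc3b, and the 2 that fell were Atg14 and Atg12. They belong to the membrane, receptor, conjugation and Atg8 steps and to the PI3K complex. None was an initiation gene, but with 5 such genes and 24% of all genes called this is not read as a difference between steps. In the same 8 mice all 10 erythroid and all 10 neutrophil markers rose, as did 7 of 9 B-cell, 4 of 11 macrophage and 3 of 6 NK-cell markers that were tested, while 2 of 12 T-cell markers rose and 4 fell, 2 of 9 endothelial and stromal markers rose and 2 fell, and the erythroid markers summed to 2578 to 7571 CPM in the 4 ICN mice. The part of these cells in the 7 calls cannot be told apart from that of ICN.

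Wipi1 differed most. It lies on chromosome 11 at 109573331 to 109611967 of the minus strand (GRCm38). Its level was 4.96 and 10.8 CPM in the 2 ICN deltaPOZ-Vav mice and 12.8 and 11.99 CPM in the 2 ICN Miz1-wt mice. Against this, the mice without ICN had 0.298 and 0.295 CPM with deltaPOZ-Vav and 0.225 and 0.531 CPM with Miz1 wt. The lowest ICN mouse was therefore several times above the highest mouse without ICN, and the fitted log2 change was 4.86 (SE 0.48, adjusted p = 7.4e-05). Over all 12 ICN mice the range was 4.96 to 24.4 CPM (median 10.8).

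Optn encodes optineurin, a receptor for mitochondria and bacteria that binds ubiquitin and LC3 (chromosome 2, 5020642 to 5064051, minus strand). Its level was 19.3 and 45.8 CPM in ICN deltaPOZ-Vav mice and 48.0 and 42.6 CPM in ICN Miz1-wt mice, against 5.10 and 6.09 CPM in deltaPOZ-Vav mice and 1.03 and 10.6 CPM in Miz1-wt mice without ICN. All ICN mice were above all mice without ICN (log2 change 2.75, SE 0.65, adjusted p = 0.0113). The 2 Miz1-wt mice without ICN lay at both ends of the range without ICN.

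Atg4a, on the X chromosome at 140956907 to 141164270 (plus strand), encodes the Atg4 protease best known for processing the GABARAP branch. It stood at 28.5 and 54.0 CPM in ICN deltaPOZ-Vav mice and 68.7 and 48.4 CPM in ICN Miz1-wt mice, against 19.7 and 13.8 CPM in deltaPOZ-Vav mice and 15.4 and 15.8 CPM in Miz1-wt mice without ICN. The groups did not overlap (log2 change 1.61, SE 0.32, adjusted p = 0.00473). The related Atg4d also stood apart, at 39.5 to 58.8 CPM with ICN and 22.7 to 36.1 CPM without, but did not pass the test (log2 change 0.67, SE 0.26, adjusted p = 0.0788).

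Sqstm1 lies on chromosome 11 at 50199366 to 50210827 (minus strand). Its levels were 213.3 and 221.8 CPM in ICN deltaPOZ-Vav mice and 228.3 and 229.8 CPM in ICN Miz1-wt mice, against 144.8 and 144.7 CPM in deltaPOZ-Vav mice and 134.8 and 158.3 CPM in Miz1-wt mice without ICN. The change was modest but the libraries agreed closely (log2 change 0.62, SE 0.15, adjusted p = 0.013). The call was lost without the first Miz1-wt mouse without ICN (adjusted p = 0.0581) and without the second ICN deltaPOZ-Vav mouse (adjusted p = 0.0553). Of its exon bases, 17.3% lie opposite Mrnip, from which reads could not be told apart without a known strand setting. The same holds for Becn1 (43.9% opposite Cntd1), Gabarapl1 (28.3% opposite 1700101I11Rik), Atg4d (19.3% opposite Kri1) and Uvrag (17.6% opposite Gm45187), and Atg9a and Wdr45 share 31.8% and 24.7% of their exon bases with Gm29253 and Gm45208 on the same strand.

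Map1lc3b encodes LC3B, the Atg8 protein most used to mark autophagosomes (chromosome 8, 121590361 to 121598760, plus strand). It had 89.8 and 82.5 CPM in ICN deltaPOZ-Vav mice and 148.6 and 112.5 CPM in ICN Miz1-wt mice, against 106.5 and 64.5 CPM in deltaPOZ-Vav mice and 62.8 and 57.1 CPM in Miz1-wt mice without ICN. The groups overlapped through the first deltaPOZ-Vav mouse without ICN. The log2 change of 0.57 (SE 0.18) passed narrowly (adjusted p = 0.0373), and the call was lost on leaving out any of 14 of the 16 libraries, with adjusted p up to 0.127, and when the 8 compared libraries alone were fitted (adjusted p = 0.146). Without the first ICN Miz1-wt mouse, the library that stood apart, the log2 change of Map1lc3b was 0.462. Gabarapl2, a GABARAP-branch Atg8 gene, had 41.1 to 48.8 CPM with ICN and 20.7 to 36.3 CPM without, and a log2 change of 0.59 (SE 0.20, adjusted p = 0.0534), just above the threshold, so it was not called. DESeq2 called it (adjusted p = 0.0317).

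Atg14 and Atg12 were lower with ICN. Atg14 is the subunit that directs the PI3K complex to the site where autophagosomes form (chromosome 14, 47540893 to 47570649, minus strand). Its level was 6.22 and 8.89 CPM in ICN deltaPOZ-Vav mice and 16.8 and 8.47 CPM in ICN Miz1-wt mice, against 28.3 and 21.04 CPM in deltaPOZ-Vav mice and 19.5 and 28.2 CPM in Miz1-wt mice without ICN. Every ICN mouse lay below every mouse without ICN (log2 change -1.31, SE 0.29, adjusted p = 0.0081). Atg12, the ubiquitin-like protein that is joined to Atg5 (chromosome 18, 46730144 to 46741580, minus strand), had 58.7 and 49.9 CPM in ICN deltaPOZ-Vav mice and 86.6 and 50.3 CPM in ICN Miz1-wt mice, against 88.0 and 80.8 CPM in deltaPOZ-Vav mice and 132.5 and 105.0 CPM in Miz1-wt mice without ICN. Only the first ICN Miz1-wt mouse reached into the range without ICN (log2 change -0.72, SE 0.18, adjusted p = 0.0146). The call was lost without the second ICN deltaPOZ-Vav mouse (adjusted p = 0.0537) and when the 8 compared libraries alone were fitted (adjusted p = 0.0793). Uvrag, the alternative to Atg14 in the PI3K complex, had 51.2 to 75.4 CPM with ICN and 49.9 to 114.2 CPM without (log2 change -0.26, SE 0.23, adjusted p = 0.452).

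**Figure D3:**
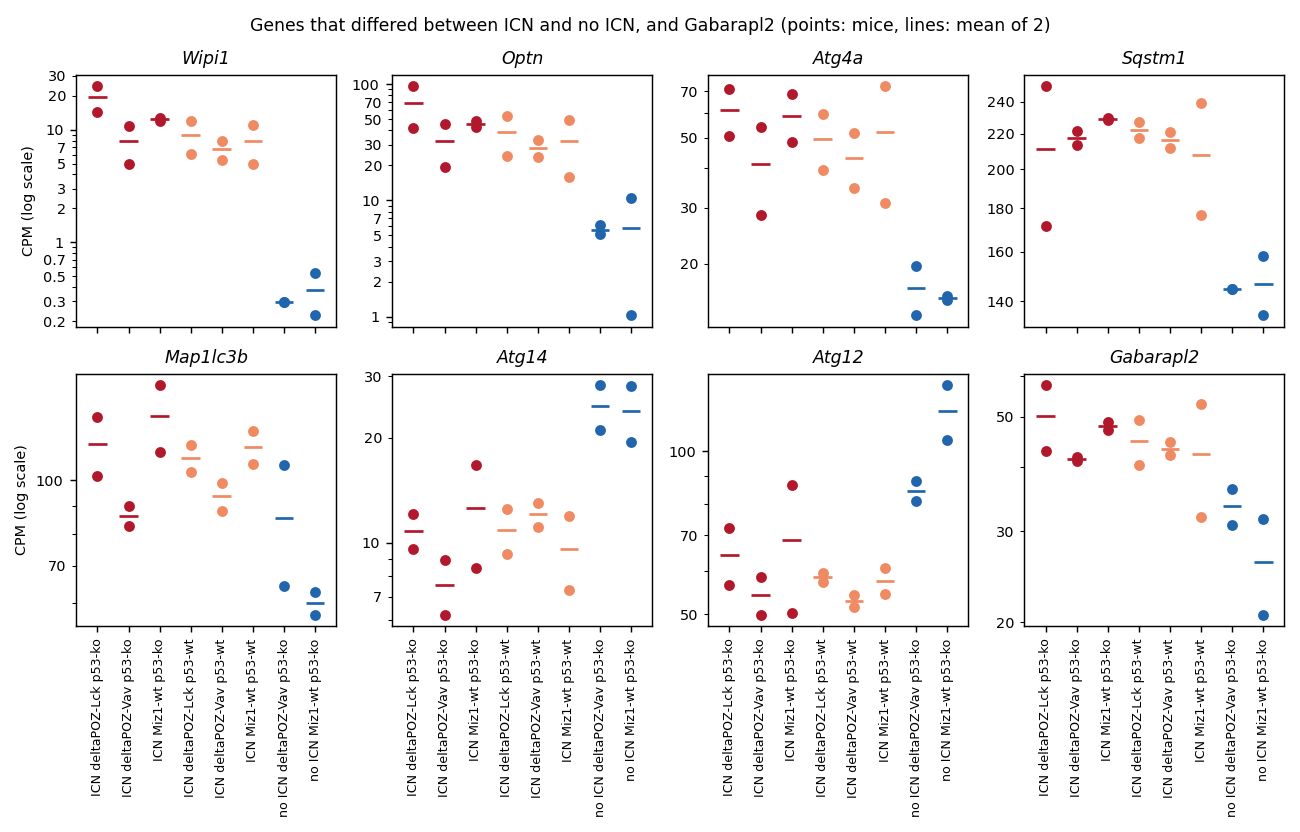
Levels in CPM (log scale) of the 7 genes that differed between ICN and no ICN and of Gabarapl2, with 1 point per mouse and a line at the mean of each group of 2. The ICN p53-ko (dark red) and ICN p53-wt (orange) mice sit above the mice without ICN (blue) for Wipi1, Optn, Atg4a and Sqstm1 and below them for Atg14.

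The libraries on each side of this comparison did not overlap for 8 genes that were higher and 1 that was lower, against 12.1% and 9.56% of all genes. The other higher ones, beside Wipi1, Optn, Atg4a, Sqstm1, Gabarapl2 and Atg4d, were Becn1 and Atg4b. When all 12 ICN mice, p53 wt ones and Lck ones included, were set against the same 4 mice, Wipi1, Optn, Atg4a and Sqstm1 were above in every mouse and Atg14 below in every mouse. Among all genes 8.25% were above and 5.74% below in the same way. By step, 0 of 5 initiation genes passed the test, too few genes to set against the 24% of all genes called. Rb1cc1, Atg13 and Atg101 had log2 changes of 0.30, -0.28 and -0.44. Rb1cc1 was at 236.2 CPM in the first ICN Miz1-wt mouse and at 106.0 to 118.6 CPM in the other compared ICN mice. Ulk2 had the largest change of the 5, with 43.5 to 99.4 CPM with ICN and 22.4 to 70.0 CPM without (log2 change 0.74, SE 0.34, adjusted p = 0.133). With no filter on low counts edgeR called Ulk2 (adjusted p = 0.00834), along with 17.2% of all genes. Among the PI3P effectors only Wipi1 passed, and its relatives Wipi2, Wdr45 and Wdr45b had log2 changes of 0.06, -0.05 and -0.29. In the conjugation step 2 of 11 passed, in opposite directions, and the genes Atg3, Atg5, Atg7 and Atg16l1 had log2 changes of -0.11 to 0.21. Of the 5 receptors 2 passed. Tax1bp1 was at 305.5 to 574.3 CPM with ICN and 165.1 to 358.7 CPM without (log2 change 0.60, SE 0.23, adjusted p = 0.0765), and Nbr1 had a log2 change of -0.01 (SE 0.15). Epg5, which tethers autophagosomes to lysosomes, had 76.7 to 103.0 CPM with ICN and 85.0 to 186.8 CPM without (log2 change -0.44, SE 0.16, adjusted p = 0.0763).

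Sequence around gene starts was read from RefSeq on build GRCm38.p6, in windows of 300 bases that hold 250 before a RefSeq start and 50 after it. The gene spans given above came from another annotation, GENCODE M21. The windows of Wipi1, Atg14 and Atg7, among others, lie inside those genes' spans and not upstream of them. No window of Atg12, which was called with ICN, or of Pik3c3 or Epg5 was searched. Windows of 33 of the 41 genes were used, 40 in all. They were searched on both strands for 3 sets of letters, namely the E-box core CACGTG bound by Tfeb and Tfe3 among others, the letters GTGGGAA bound by RBPJ, the partner of intracellular Notch, and the letters AGATAA bound by GATA factors, which include Gata1 of erythroid cells. Shown are the windows of Wipi1, the gene that differed most, which held none of them, of Sqstm1 and Atg14, which held RBPJ letters, and of an upstream start of Atg4a, which held GATA letters. Capitals mark the matches.
Wipi1 chr11:109611340-109611639, minus strand: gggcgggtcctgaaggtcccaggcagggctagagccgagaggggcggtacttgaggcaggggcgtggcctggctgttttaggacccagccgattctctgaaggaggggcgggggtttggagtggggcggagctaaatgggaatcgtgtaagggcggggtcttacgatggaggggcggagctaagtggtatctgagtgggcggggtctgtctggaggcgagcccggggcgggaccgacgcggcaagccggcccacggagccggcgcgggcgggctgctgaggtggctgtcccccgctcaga
Sqstm1 chr11:50210771-50211070, minus strand: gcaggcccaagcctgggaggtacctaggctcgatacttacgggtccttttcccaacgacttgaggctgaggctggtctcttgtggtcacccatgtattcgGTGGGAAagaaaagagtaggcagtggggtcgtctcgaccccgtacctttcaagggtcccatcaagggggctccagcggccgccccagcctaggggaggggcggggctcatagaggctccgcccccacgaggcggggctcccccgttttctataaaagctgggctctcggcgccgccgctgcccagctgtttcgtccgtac
Atg14 chr14:47568385-47568684, minus strand: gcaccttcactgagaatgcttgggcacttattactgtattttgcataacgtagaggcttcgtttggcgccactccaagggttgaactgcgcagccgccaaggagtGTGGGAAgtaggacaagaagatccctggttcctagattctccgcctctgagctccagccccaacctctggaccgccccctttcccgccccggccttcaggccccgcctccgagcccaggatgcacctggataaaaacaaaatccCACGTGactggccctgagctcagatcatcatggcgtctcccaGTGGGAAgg
Atg4a chrX:140953595-140953894, plus strand: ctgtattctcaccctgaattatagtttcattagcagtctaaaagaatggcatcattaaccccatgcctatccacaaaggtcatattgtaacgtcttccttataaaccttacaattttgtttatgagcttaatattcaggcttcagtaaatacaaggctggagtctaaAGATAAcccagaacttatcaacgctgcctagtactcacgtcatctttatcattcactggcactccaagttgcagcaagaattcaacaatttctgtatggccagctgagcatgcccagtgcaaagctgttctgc

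Counted from the start as base 1, the match in Sqstm1 began at -150, those in Atg14 at -145, -1 (the E-box, palindromic and so the same on both strands) and 42, and that in Atg4a at -83. Of the 40 windows, 12.5% held the E-box core, against 7.15% of 32851 windows of all genes. RBPJ letters were in 7.5% of the 40 and 6.38% of all, and GATA letters in 5% and 11.2%. The E-box windows were those of Atg14, Nrbf2, Atg3, Atg5 and Atg7, and of these genes Atg14 alone was called with ICN. Windows of 1 gene can overlap, and a match is a description of letters and not of binding. RBPJ letters were also in a window of Tax1bp1 and GATA letters in the window of Atg4d, and neither gene was called with ICN. The second window of Atg4a, at its annotated start, and the windows of Optn and Map1lc3b held none of the 3.

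Because the erythroid markers varied 4.25 times among the ICN mice themselves, the genes were also followed along that range. This comparison was chosen after the data were seen. Within the 12 ICN libraries, log2 counts were fitted with edgeR on the mean log2 CPM of the 10 erythroid markers, with a term for each of the 6 groups and 5 residual degrees of freedom. The slope is the log2 change per doubling of the markers. Of the 41 genes 3 had a called slope, all positive, namely Optn (0.97, SE 0.10, adjusted p = 0.00501), Atg4a (0.66, SE 0.11, adjusted p = 0.0279) and Wipi1 (0.76, SE 0.13, adjusted p = 0.034). This is 7.32% of the 41, against 1.24% of all genes with a positive called slope and 0% with a negative one. In the mouse with the lowest erythroid sum, the first ICN Miz1-wt p53-wt mouse (2196 CPM), Optn was at 15.97 CPM, Atg4a at 31.2 CPM and Wipi1 at 4.97 CPM. In the mouse with the highest, the first ICN deltaPOZ-Lck p53-ko mouse (9324 CPM), Optn was at 96.4 CPM, Atg4a at 71.5 CPM and Wipi1 at 24.4 CPM. Other genes that rose with ICN did not pass the test of the slope. Sqstm1 had a slope of 0.20 (SE 0.09, adjusted p = 0.769) with 176.6 CPM in the mouse lowest in erythroid markers and 250.3 CPM in the mouse highest in them.

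The slopes rest on few mice. Without either ICN Miz1-wt p53-wt mouse, which lie near opposite ends of the range, no slope of the 41 genes was called. The number of all genes with a called slope also varied when 1 library was left out. The loss is therefore not read as particular to the 41. Since each group has a term of its own, leaving out 1 mouse of a pair also takes its partner out of the slope. The Optn call held in the other 10 of 12 such fits, and the Atg4a and Wipi1 calls held in 2 of 12. The slopes themselves stayed at 0.90 to 1.03 for Optn, 0.61 to 0.67 for Atg4a and 0.73 to 0.87 for Wipi1. Neutrophil and macrophage markers were highest in the ICN deltaPOZ-Lck p53-ko pair, at 9197 and 6552 CPM and at 1590 and 1199 CPM. Wipi1 was also highest in this pair, at 24.4 and 14.2 CPM, where erythroid markers summed to 9324 and 4793 CPM. The part of neutrophils and macrophages in the slopes was not tested. The second ICN Miz1-wt p53-wt mouse, with erythroid markers at 8243 CPM, neutrophil markers at 56.4 CPM and macrophage markers at 205.7 CPM, had Optn at 48.7 CPM, Atg4a at 72.8 CPM and Wipi1 at 10.9 CPM.

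**Figure D4:**
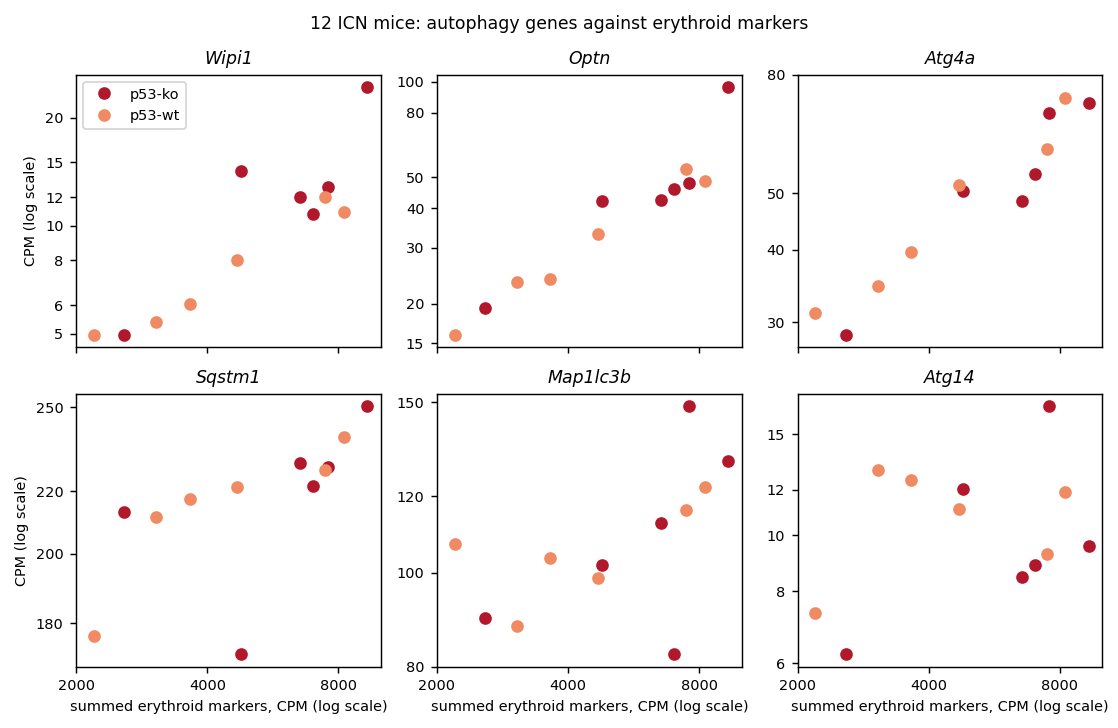
CPM of 6 autophagy genes (vertical, log scale) against the summed CPM of 10 erythroid markers (horizontal, log scale) in the 12 ICN mice, p53 ko in dark red and p53 wt in orange. Optn, Atg4a and Wipi1 tend to be higher in mice with more erythroid RNA, with Optn at 15.97 CPM in the lowest and 96.4 CPM in the highest, whereas Atg14 shows no such order. The 2 highest points of Wipi1 are the ICN deltaPOZ-Lck p53-ko mice.

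Loss of p53 was compared in ICN mice, 6 p53 ko against 6 p53 wt. None of the 41 genes passed edgeR's test (0 of 41, against 0.195% of all genes in either direction and 0.12% of all genes higher), and DESeq2 called 0 as well, against 6.23% of all genes. At an unadjusted p under 0.05 there were 2 (4.88%), against 15.5% of all genes. Libraries of the 2 sides overlapped for all 41, where 2.6% of all genes stood apart. The changes leaned upward, with 32 positive and 9 negative and a median of 0.12, against 0.00 among all genes. The 2 genes below an unadjusted 0.05 were Atg9a and Ulk2. Atg9a, the membrane protein of the vesicles that seed autophagosomes, was at 35.2 and 31.0 CPM in Lck, 11.3 and 21.3 CPM in Vav and 55.8 and 22.6 CPM in Miz1-wt mice with p53 ko, against 21.02 and 15.6, 13.4 and 16.7, and 15.9 and 22.4 CPM in the same Miz1 states with p53 wt. The first p53-ko Miz1-wt mouse was the highest and a p53-ko Vav mouse the lowest (log2 change 0.67, SE 0.24, adjusted p = 0.213), and without the highest mouse the log2 change was 0.41.

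Ulk2, an initiation kinase, went the other way. It stood at 57.7 and 76.6 CPM in Lck, 99.4 and 43.5 CPM in Vav and 56.7 and 83.1 CPM in Miz1-wt mice with p53 ko, against 102.9 and 142.5, 89.0 and 127.6, and 106.8 and 126.3 CPM with p53 wt. A single p53-ko mouse, the first deltaPOZ-Vav one, lay within the p53-wt range (log2 change -0.74, SE 0.27, adjusted p = 0.223). Gabarapl1 had 15.6 to 33.2 CPM in p53-ko and 8.23 to 19.6 CPM in p53-wt mice (log2 change 0.84, SE 0.39, adjusted p = 0.327). When no filter on low counts was applied, Ulk2 and Gabarapl1 were called, along with 5.28% of all genes. Macrophage markers summed to 254.3 to 1590 CPM in the p53-ko mice and 157.5 to 324.9 CPM in the p53-wt mice, and neutrophil markers to 56.4 to 9197 CPM in p53-ko and 56.4 to 907 CPM in p53-wt mice. With erythroid and macrophage marker scores as covariates, Atg9a kept its direction (log2 change 0.505, SE 0.57) and Ulk2 turned positive (0.507, SE 0.557), both with an adjusted p of 1, and 0% of all genes were called. The part of neutrophils was not tested.

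With the Miz1 POZ domain deleted, no gene of the machinery passed the threshold in any background. Averaged over the 3 backgrounds (10 deltaPOZ against 6 Miz1-wt mice), edgeR called 0 of 41, against 0.0172% of all genes, and DESeq2 called 0 of 41, against 0.738% of all genes. At an unadjusted p under 0.05 there was 1 gene (2.44%, against 4.92% of all genes), and 0 of 41 stood apart between the sides, against 0.195% of all genes. In ICN p53-wt mice 0 of 41 were called (all genes 0%) and 0 had an unadjusted p under 0.05 (all genes 1.87%). In ICN p53-ko mice the counts were 0 called (all genes 0.00572%) and 0 unadjusted (3.78%). Without ICN they were 0 called (all genes 0%) and 1 unadjusted (7.68%). DESeq2 called 0 of the 41 in each of these backgrounds, against 0.0859% of all genes in ICN p53-wt mice, 0.653% in ICN p53-ko mice and 1.33% without ICN. The libraries stood apart for 5 genes in ICN p53-wt mice (12.2%, against 11.4% of all genes), for 0 in ICN p53-ko mice (against 8.9%) and for 10 without ICN (24.4%, against 26%), shares near or below those of all genes. The difference of the deltaPOZ effect between p53-ko and p53-wt ICN mice was called for 0 of 41 by edgeR and by DESeq2 (all genes 0% by edgeR and 0.155% by DESeq2), with 0 at an unadjusted p under 0.05 (2.6% of all genes).

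The gene below an unadjusted 0.05 was Epg5 in both cases. Without ICN it had 85.0 and 97.6 CPM in deltaPOZ-Vav mice and 113.5 and 186.8 CPM in Miz1-wt mice (log2 change -0.72, SE 0.23, edgeR's adjusted p = 0.484). With ICN the deltaPOZ mice had 76.7 to 98.1 CPM in p53 ko and 71.9 to 94.7 CPM in p53 wt, against 82.0 to 103.0 CPM in p53-ko and 91.6 to 94.3 CPM in p53-wt Miz1-wt mice. The averaged log2 change was -0.32 (SE 0.12, adjusted p = 0.938). Tfeb showed the largest difference without ICN, with 1.53 and 8.92 CPM in deltaPOZ-Vav mice and 9.56 and 17.3 CPM in Miz1-wt mice, and it rests on the mouse at 1.53 CPM (log2 change -1.36, SE 0.63, adjusted p = 0.648). Without the other deltaPOZ-Vav mouse it was called, in a fit that also called more of all genes than the fit of all 16 libraries. Outside the 41 genes, and named after its values were seen, Ambra1, which couples Beclin 1 to Ulk1, was at 39.3 to 66.0 CPM in the 10 deltaPOZ mice and 74.4 to 101.4 CPM in the 6 Miz1-wt mice. Its averaged log2 change of -0.71 (SE 0.12) was not called by edgeR (adjusted p = 0.131) but was by DESeq2 (adjusted p = 3.76e-05), and by edgeR with no filter on low counts (adjusted p = 0.00348) and without the second deltaPOZ-Vav mouse without ICN (adjusted p = 0.0321).

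**Figure D5:**
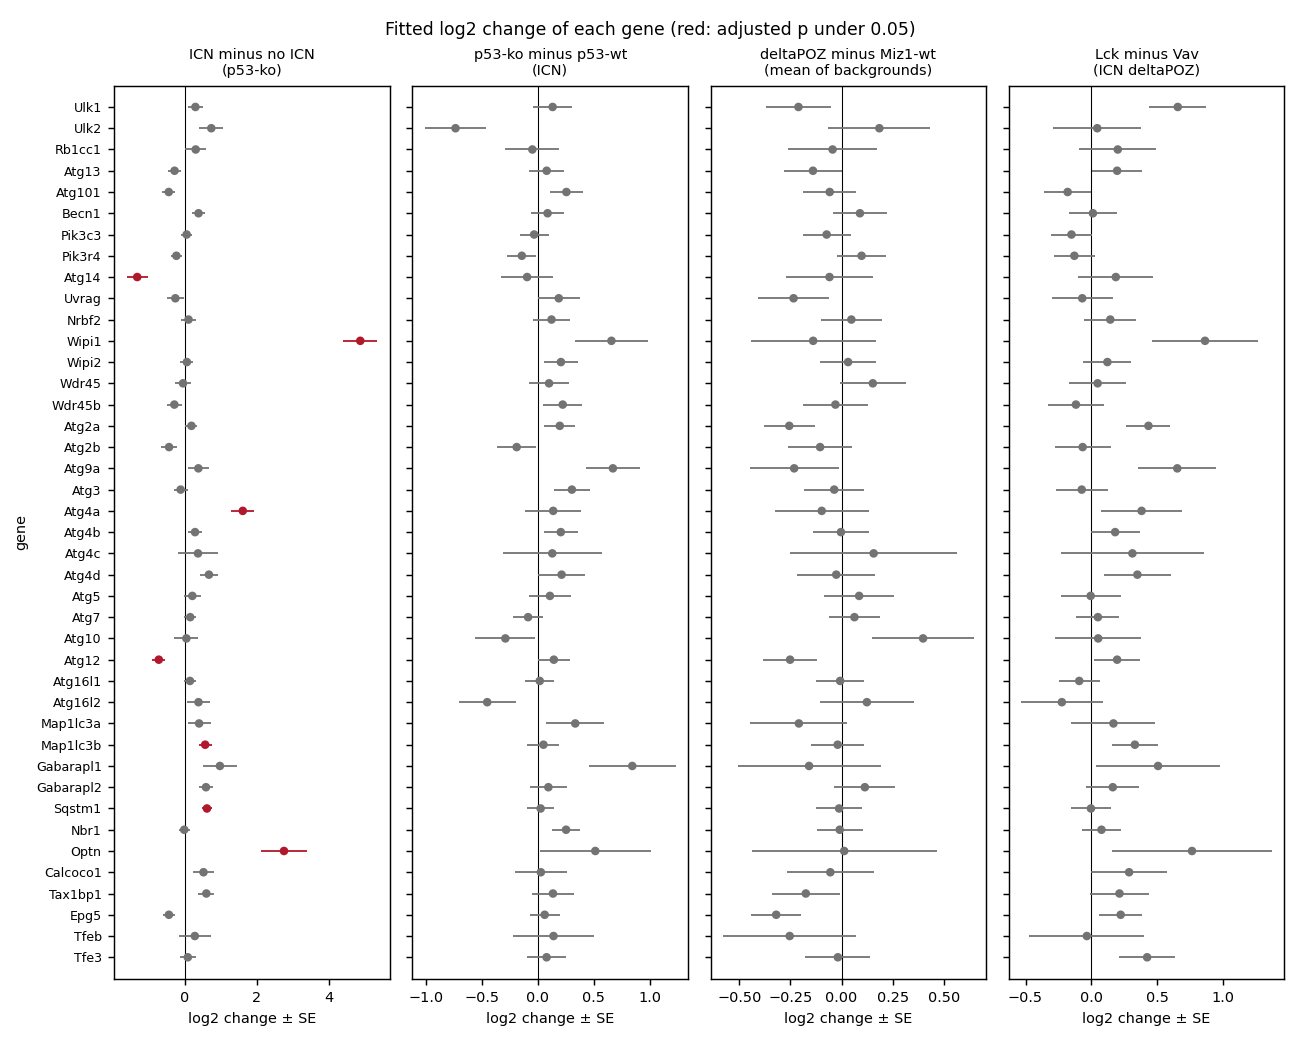
Fitted log2 change with its standard error for the 41 genes in 4 comparisons, each panel on its own scale, with adjusted p under 0.05 in red. Red points occur in the panel of ICN against no ICN alone, where Wipi1 is at 4.86 and Atg14 at -1.31.

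Among ICN deltaPOZ mice, the 4 with the suffix Lck were set against the 4 with the suffix Vav. EdgeR called 0 of 41 (all genes 0%) and DESeq2 0 of 41 (all genes 0.0859%), with 3 at an unadjusted p under 0.05 (7.32%, against 3.15% of all genes). The libraries did not overlap for 5 genes, all higher with Lck (12.2%, against 1.6% of all genes higher and 1.29% lower). Ulk1, the main initiation kinase, was at 70.1 and 37.6 CPM in p53-ko and 37.6 and 50.9 CPM in p53-wt Lck mice, against 24.1 and 34.5 CPM in p53-ko and 36.5 and 28.8 CPM in p53-wt Vav mice (log2 change 0.66, SE 0.22, adjusted p = 1). The lipid transfer protein gene Atg2a had 50.9 to 74.6 CPM with Lck and 40.03 to 46.0 CPM with Vav (log2 change 0.43, SE 0.17, adjusted p = 1). The others that stood apart were Map1lc3b, Tax1bp1 and Tfe3, with log2 changes of 0.33, 0.21 and 0.42. Erythroid markers summed to 3641 to 9324 CPM in the Lck mice and 2578 to 7005 CPM in the Vav mice, and neutrophil markers to 160.4 to 9197 CPM in Lck and 117.4 to 1570 CPM in Vav mice. With erythroid and macrophage scores as covariates, Ulk1 had a log2 change of 0.654 (SE 0.35) and Atg2a of 0.194 (SE 0.273), both with an adjusted p of 1, and 0 of 41 genes and 0% of all genes were called. The part of neutrophils was not tested.

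Genes around the core machinery were counted from 4 further lists in the same fits, to be read against the 12.9% of all genes that were higher and 11.1% that were lower with ICN. With ICN, 3 of 20 other assembly and fusion genes were higher and 0 lower. These were Vamp8, a SNARE of the fusion with lysosomes (log2 change 1.56, SE 0.27, adjusted p = 0.00248), Vmp1 (0.78, SE 0.16, adjusted p = 0.00662) and Sh3glb1 (0.65, SE 0.20, adjusted p = 0.0374). Vamp8 was at 30.8, 43.5, 70.0 and 49.4 CPM with ICN and 15.9, 13.0, 12.8 and 22.4 CPM without. Among 11 other receptors and mitophagy genes 3 were higher and 1 lower. Retreg1, a receptor for endoplasmic reticulum, was at 25.6 to 36.5 CPM with ICN and 0.4504 to 8.16 CPM without (log2 change 3.71, SE 0.45, adjusted p = 0.000296). Bnip3, a mitochondrial receptor induced by low oxygen, was at 1.40 to 3.33 CPM with ICN and 10.2 to 15.3 CPM without (log2 change -2.44, SE 0.37, adjusted p = 0.00113). Fundc1, also mitochondrial, and the kinase gene Tbk1, which phosphorylates optineurin, rose by 0.83 and 0.74 on the log2 scale (adjusted p = 0.0307 and 0.0467).

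Of 21 genes of mTORC1 and AMPK signalling, which restrain and promote Ulk1, 1 was higher (Prkag1, log2 change 0.52) and 3 were lower. Mtor was at 94.2 to 140.4 CPM with ICN and 170.3 to 231.0 CPM without (log2 change -0.71, SE 0.19, adjusted p = 0.0209). Rptor, its partner in mTORC1, and Tsc1, which restrains it, had log2 changes of -0.81 and -0.60 (adjusted p = 0.0336 and 0.0345). Of 27 lysosome genes 1 was higher (Atp6ap1, a proton pump accessory subunit, log2 change 0.78) and 5 were lower. Among these were the cathepsin genes Ctsl (log2 change -1.89, SE 0.25, adjusted p = 0.000605) and Ctsd (-0.79, SE 0.24, adjusted p = 0.0366) and the glycogen-cleaving enzyme gene Gaa (-0.71, SE 0.18, adjusted p = 0.0173). Ctsl was at 19.5 to 36.9 CPM with ICN and 85.0 to 143.2 CPM without. Of the named calls with ICN in these lists, those of Vmp1, Vamp8, Bnip3, Retreg1, Ctsl and Atp6ap1 held on leaving out each of the 16 libraries. Those of Gaa (2 of 16), Mtor (3), Rptor (5), Ctsd (6), Tsc1 (10), Sh3glb1 (11), Fundc1 (12), Tbk1 (14) and Prkag1 (14) were lost on leaving out that number of single libraries. All of these but Gaa were also lost when the 8 compared libraries alone were fitted, with adjusted p from 0.0575 for Mtor to 0.175 for Tbk1. Ctsl was also the 1 gene of these lists called with loss of p53, at 19.5 to 50.02 CPM in ICN p53-ko and 10.1 to 21.3 CPM in ICN p53-wt mice (log2 change 1.20, SE 0.20, adjusted p = 0.048), a call lost on leaving out any of 14 of the 16 libraries. Under the filter used and with all 16 libraries, no gene of the 4 lists was called by edgeR in the comparisons of deltaPOZ with Miz1 wt or of Lck with Vav.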

How the data were processed

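The authors deposited raw counts per gene, 1 table per mouse, from total RNA and a TruSeq stranded mRNA kit per the labels' protocols. TopHat2 2.0.10, SAMtools, HTSeq and DESeq on mm10 (GRCm38) are named in the submitters' processing notes. The strand setting of the counter is not stated. The 5 closing totals of each table, with 45.81% to 63.74% of a library not uniquely aligned, were left out. Symbols and exons came from GENCODE M21, which held 40340 of 41214 identifiers.

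Counts were fitted with edgeR 4.0.16 (R 4.3.3; filterByExpr; TMM factors 0.952 to 1.05; 8 group means; 8 residual degrees of freedom), with quasi-likelihood F tests whose p-values were adjusted by Benjamini-Hochberg over 17470 genes. CPM values are TMM-scaled, and an SE is the log2 change over the square root of F. DESeq2 1.42.0, other scaling and filters, the compared libraries alone, marker covariates and each library left out were tried. The edgeR fit was tested on counts simulated from its own model for the comparison of ICN with no ICN, with planted changes larger than most reported here. The other comparisons and the erythroid slope were not simulated. Nothing in the labels says more of the replicates than 2 mice per group.

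The 41 genes, the lists and the tests were chosen with earlier results of these data known. All 41 are named with their roles. The 12 given in full are those called in any comparison and then those of smallest p, and up to 4 called genes of each other list are named. The erythroid slope was added after the data were seen.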

Additional observations from a re-analysis of the deposited data

Results flagged for a closer look

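Tfe3 had log2 changes of opposite sign with the Miz1 deletion in 2 backgrounds, with the libraries apart in each. Libraries stood apart, in either direction, for 11.4% of all genes in ICN p53-wt mice and for 26% without ICN. In ICN p53-wt mice Tfe3 was at 13.5 to 16.5 CPM in the 4 deltaPOZ mice and 17.2 and 18.9 CPM in the 2 Miz1-wt mice, a log2 change of -0.295 (SE 0.258). Without ICN it was at 15.68 and 17.1 CPM in deltaPOZ-Vav mice and 10.6 and 14.3 CPM in Miz1-wt mice, a log2 change of 0.397 (SE 0.302). Neither passed edgeR's test (adjusted p = 1 and 0.855), and the difference between the 2 backgrounds was not tested.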

How the results depend on the processing

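With erythroid and macrophage marker scores as covariates, 0 of 41 genes were called with ICN (median log2 change -1.128), and 0% of all genes. The erythroid score nearly coincides with ICN, so this fit could hardly separate the 2, whereas the macrophage score overlapped between ICN and no ICN. The standard errors of the genes named next for ICN were 1.31 to 4.95. In that fit Wipi1 was at -3.595, Optn -8.283, Atg4a -6.139, Atg4d -3.265, Sqstm1 -1.608, Map1lc3b -0.615, Gabarapl2 -1.584, Atg12 0.134, Sh3glb1 -1.596, Vamp8 -3.208, Tbk1 -0.249 and Atp6ap1 -1.22, Ulk2 with p53 loss at 0.507, and the median for deltaPOZ without ICN at -0.203, none of these genes called (adjusted p = 1). With no filter 11 genes were called with ICN (17.2% of all genes) and 2 with p53 loss (5.28% of all genes), and with no group terms 5 had a called erythroid slope (2.43% of all genes); the cause was not tested. Leaving out 1 library gave 4 to 10 calls with ICN, 4 being Atg14, Wipi1, Atg4a and Optn without the second ICN deltaPOZ-Vav p53-ko mouse, and these 4 were called in all 16 such fits. It gave 0 to 3 called slopes, 0 to 1 calls (Tfeb) and medians of -0.044 to 0.213 for deltaPOZ without ICN, and medians of -0.109 to 0.056 for deltaPOZ in ICN p53-ko mice. A lone mouse left in a group was taken to vary like the other groups. No paired analysis was possible because the labels give no replicate numbers. RLE scaling called the same 7 genes with ICN (24.1% of all genes called), and DESeq2 added Gabarapl2 (30.5% of all genes called). The 8 compared libraries alone called 5, without Map1lc3b and Atg12 (14.2% of all genes called). With 2 mice per group, small changes may go uncalled.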
